A study of Homo sapiens with 8 samples.

Results

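The BCL2 family decides whether the outer mitochondrial membrane stays intact, and 10 of its genes are described here across 8 RNA-seq libraries. The 10 were matched by symbol and grouped by known role, and they were chosen with earlier results of these data known. They are 4 anti-apoptotic genes (BCL2, BCL2L1, MCL1 and BCL2A1) and 6 pro-apoptotic genes (BAK1, BCL2L11, PMAIP1, BID, BIK and BMF). All 10 were found among the 46427 genes listed for NCI-H1944 and the 61271 listed for NCI-H647, both established human lung cancer lines of wild-type genotype per the labels. In each line, 2 libraries came from cells given 100 nM BAY-1217389 for 48 hours and then grown without it for 24 hours, and 2 from cells given DMSO on the same schedule. BAY-1217389 inhibits MPS1, a kinase of the spindle assembly checkpoint that holds cells in mitosis until their chromosomes are attached. All cells were grown in medium with serum, antibiotics and a mycoplasma-preventing agent, and each line is a single model.

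Anti-apoptotic members of the family, such as MCL1 and BCL-XL (the product of BCL2L1), sit on mitochondria and bind their pro-apoptotic relatives. BAK, the product of BAK1, and its relative BAX are effectors that form pores in the outer membrane and release cytochrome c. The BH3-only proteins, among them BIM (BCL2L11), NOXA (PMAIP1), BID, BIK and BMF, occupy the groove of the anti-apoptotic members or activate the effectors directly. NOXA binds chiefly MCL1 and the BCL2A1 product, which makes the levels of these partners of interest side by side.

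The PMAIP1, BCL2A1 and BMF promoters are shown because these genes had the largest rises among the members tested in NCI-H647. Each run is 250 bases immediately upstream of a RefSeq gene start in GRCh38.p14, 5′ to 3′ on the strand of the gene. The PMAIP1 window is chr18:59899746-59899995 on the plus strand, the BCL2A1 window is chr15:79971197-79971446 on the minus strand, and the BMF window shown, 1 of 2 for that gene, is chr15:40108880-40109129 on the minus strand. The other BMF window, chr15:40106967-40107216, held none of the marked motifs and had 48.8% G and C. Capitals mark matches, on either strand, to motifs read by interferon, AP-1, CREB/ATF or NF-kB factors.
PMAIP1: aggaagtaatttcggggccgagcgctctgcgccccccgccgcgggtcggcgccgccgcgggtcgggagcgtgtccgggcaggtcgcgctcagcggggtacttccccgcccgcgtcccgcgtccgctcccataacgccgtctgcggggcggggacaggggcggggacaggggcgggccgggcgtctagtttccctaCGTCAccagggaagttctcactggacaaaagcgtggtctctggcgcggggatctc
BCL2A1: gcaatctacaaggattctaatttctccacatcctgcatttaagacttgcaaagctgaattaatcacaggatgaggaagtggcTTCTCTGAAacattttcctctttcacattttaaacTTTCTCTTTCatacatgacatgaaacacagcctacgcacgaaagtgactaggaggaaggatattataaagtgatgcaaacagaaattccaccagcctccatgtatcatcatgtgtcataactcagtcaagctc
BMF: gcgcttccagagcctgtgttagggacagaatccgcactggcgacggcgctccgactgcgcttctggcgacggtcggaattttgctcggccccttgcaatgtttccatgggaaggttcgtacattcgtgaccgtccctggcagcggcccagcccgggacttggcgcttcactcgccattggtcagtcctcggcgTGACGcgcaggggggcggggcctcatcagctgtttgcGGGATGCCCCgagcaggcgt

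The BCL2A1 window held a match to the interferon-gamma activated site (GAS, TTCNNNGAA), TTCTCTGAA at -168 to -160 from the gene start. It also held a match to the interferon-stimulated response element (ISRE: GAAA, any 2 bases, GAAA) read on the opposite strand, TTTCTCTTTC at -133 to -124. The PMAIP1 window held the core of a cyclic AMP response element (CRE core, TGACG), read on the opposite strand at -55 to -51. The BMF window shown held the CRE core at -57 to -53. It also held an NF-kB site read on the opposite strand, GGGATGCCCC as printed, at -20 to -11. Of 34786 RefSeq promoters searched with the same window and both strands, 3.02% held the ISRE, 6.57% the GAS, 21.2% the CRE core and 5.21% the NF-kB site. The AP-1 site (TGANTCA, in 6.59% of promoters) and the full CRE (TGACGTCA, in 1.64%) were in no window of a member. No match overlapped another, and a match describes letters only, not binding.

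Promoter windows were found for 8 of the 10 members, 14 windows in all. The CRE core was in 4 of these 14 windows, each of a different member, and in 21.2% of all promoters. The ISRE, the GAS and the NF-kB site were each in 1 member, those named above. A p53 decamer, GGACATGCTC, lay in a BAK1 window at -73 to -64, and a decamer of that kind was in 5.59% of all promoters. The E-box CACGTG was in 2 of the 5 BID windows, which overlap and share 1 site (-106 to -101 from one start and -47 to -42 from another), and in 6.31% of all promoters. The windows differed in base composition. The share of G and C was 38.8% at BCL2A1, 65.2% in the BMF window shown and 72.8% at PMAIP1, beside a median of 58.0% over all promoters.

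Libraries held 38904473 to 43661342 counts in NCI-H1944, made by poly(A) selection, and 13358514 to 19550859 in NCI-H647, made after ribosomal RNA depletion. Levels are given as CPM, counts brought to a common library total with TMM factors within a line, and the lines are set side by side with no test of levels. Changes are log2 fold changes of MPS1 inhibitor over DMSO ± SE from edgeR's quasi-likelihood test, with Benjamini-Hochberg adjustment over 16738 genes in NCI-H1944 and 15049 in NCI-H647. Rose or fell is written for an adjusted p under 0.05. The epithelial label was checked with 12 lung epithelial markers, whose summed level was 4130 and 4140 CPM in DMSO and 4790 and 4960 CPM in treated libraries of NCI-H1944, and 900 and 879 against 645 and 640 CPM in NCI-H647. Of the 8 markers tested in NCI-H647, KRT7 (-0.70), KRT8 (-0.41) and KRT18 (-0.30) fell and KRT19 (0.35) rose. Of the 8 tested in NCI-H1944, KRT8 (0.29), KRT18 (0.19) and KRT6A (2.45) rose and none fell. KRT7, KRT8 and KRT18 made up most of each sum, with DMSO means of 310, 2200 and 1580 CPM in NCI-H1944 and 375, 240 and 256 CPM in NCI-H647. KRT19, NKX2-1, SFTPB and KRT5 were at 0 in all NCI-H1944 libraries, and KRT5 was at 0 in all NCI-H647 libraries. CDH1 (3 to 9 counts per library), NAPSA (0 to 3) and SFTPB (0 or 1) were under the filter on low counts in NCI-H647. Blood cell markers, 10 genes, summed in NCI-H1944 to 2.34 and 2.55 CPM in DMSO and 3.74 and 4.63 CPM in treated libraries, and the NCI-H647 sums were 1.04 and 1.24 against 2.83 and 2.58 CPM. Fibroblast and endothelial markers, 9 genes, summed to 34.2 and 30.5 against 48.3 and 47.8 CPM in NCI-H1944, and to 63.5 and 69.4 against 55.6 and 51.0 CPM in NCI-H647. The part of these marker levels in the changes of the members was not tested. Whether replicates were separate cultures is not stated in the labels, and p-values reflect only the spread between these libraries, which may be technical.

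Members of both roles rose after the inhibitor, and no member fell in either line. In NCI-H1944, 6 of 9 tested members rose, where 26.0% of all tested genes changed (13.6% rose and 12.4% fell). In NCI-H647, 8 of 9 rose, where 54.4% of all tested genes changed (27.3% rose and 27.0% fell). The members were chosen with earlier results of these data known, so these counts describe them and are no test. The median log2 fold change of the tested members was 0.31 in NCI-H1944 and 0.46 in NCI-H647, beside medians of 0.00 and 0.01 over all tested genes. By role, 3 of 3 tested anti-apoptotic and 3 of 6 tested pro-apoptotic members rose in NCI-H1944, with medians of 0.45 and 0.28. In NCI-H647, 3 of 4 anti-apoptotic and 5 of 5 tested pro-apoptotic members rose, with medians of 0.35 and 0.46. BCL2L1, MCL1, BCL2L11, PMAIP1 and BID were the 5 members, of 8 tested in both lines, that rose in both. Both treated libraries lay above both DMSO libraries for 8 of 9 tested members in each line, where 30.5% of all tested genes did so in NCI-H1944 and 38.4% in NCI-H647. Both treated libraries lay below both DMSO libraries for no tested member, where 30.5% and 37.9% of all tested genes did so. In bulk RNA, a change in the share of cells with a transcript and a change of RNA per cell cannot be told apart.

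**Figure D1:**
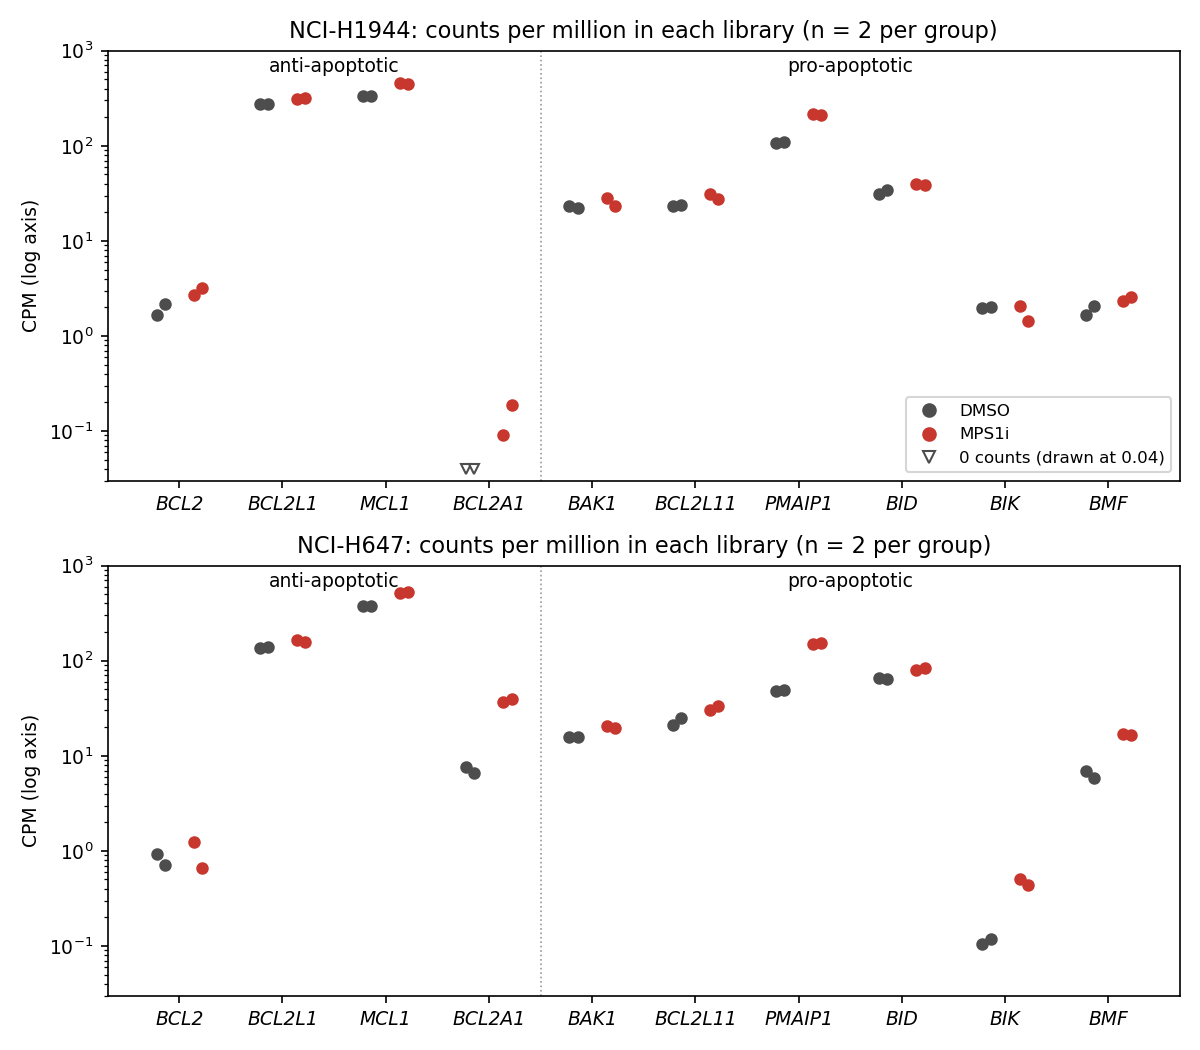
Level of each of the 10 members in every library, in CPM on a log axis, for NCI-H1944 and NCI-H647; points are single libraries, coloured by treatment, and open triangles stand for 0 counts. The PMAIP1 libraries separated in both lines, at 107 and 109 against 217 and 213 CPM in NCI-H1944, and BCL2A1 was at 0 in both DMSO libraries of NCI-H1944.

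Among the anti-apoptotic members, MCL1, a short-lived guard that sequesters BIM, NOXA and BAK, rose in both lines. The gene lies at chr1:150560895-150579738 on the minus strand (GRCh38, as listed with the NCI-H647 counts). In NCI-H1944 it stood at 335 and 332 CPM in DMSO and at 461 and 452 CPM after the inhibitor. In NCI-H647 it stood at 375 and 376 CPM in DMSO and at 511 and 522 CPM after the inhibitor. In each line both treated libraries were above both controls, and the gap was many times the difference between replicates. The change of MCL1 was 0.45 ± 0.03 in NCI-H1944 (1.37-fold, adjusted p = 2.92e-09) and 0.46 ± 0.03 in NCI-H647 (1.38-fold, adjusted p = 1.28e-08).

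BCL2L1, which encodes the long-lived guard BCL-XL, rose less than MCL1 in both lines in its fitted value. It lies at chr20:31664452-31723989 on the minus strand. In NCI-H1944 it was at 275 CPM in both DMSO libraries and at 310 and 320 CPM after the inhibitor, a change of 0.20 ± 0.03 (1.15-fold, adjusted p = 0.000152). In NCI-H647 it was at 135 and 138 CPM in DMSO and at 165 and 156 CPM after the inhibitor, a change of 0.24 ± 0.05 (1.18-fold, adjusted p = 4e-04). The groups did not overlap in either line. The counts are totals over a gene's transcripts, so the long and short splice forms of BCL2L1, which act in opposite ways, are not separated.

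BCL2A1, a guard known mainly from blood cells and as an NF-kB target, had the largest rise of any member in NCI-H647. It lies at chr15:79960892-79971196 on the minus strand. Its NCI-H647 level was 7.71 and 6.54 CPM in DMSO and 37.2 and 39.4 CPM after the inhibitor. Both treated libraries were far above both controls. The change of BCL2A1 was 2.42 ± 0.09 on the log2 scale, 5.35-fold with a 95% interval of 4.68 to 6.11 (adjusted p = 7.59e-12). Of the 15049 genes tested in that line, 143 had a larger rise. Beside this, the 10 blood cell markers together did not exceed 2.83 CPM in any NCI-H647 library, and CD14, at 0.573 and 0.707 CPM in DMSO and 2.17 and 2.28 CPM after the inhibitor, made up most of that sum in the treated libraries. PTPRC, which marks nearly all leukocytes, was at 0.417 and 0.236 CPM in DMSO and at 0.145 and 0.0737 CPM after the inhibitor. These levels are 8 and 4 against 2 and 1 counts, under the filter on low counts. The part of these markers in the BCL2A1 rise was not tested.

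In NCI-H1944, BCL2A1 was near the limit of detection. It had 0 counts in both DMSO libraries and 4 and 8 counts after the inhibitor, or 0.0918 and 0.187 CPM. Against a floor of 3 counts over the DMSO group it was 3.61-fold higher after the inhibitor. That figure takes the treated counts as exact, so it is not a lower bound. It was below the filter on low counts, and a fit without that filter gave an adjusted p of 0.188. Among the 10 blood cell markers, PTPRC was at 0 in all NCI-H1944 libraries. Of the 3 tested there, LYZ and HBA1 rose and CD14 was not called. LYZ went from 0 and 5 to 17 and 33 counts, and HBA1 from 22 and 18 to 56 and 55. SPI1, not tested, went from 0 in both DMSO libraries to 3 and 6 counts. The part of these markers in the BCL2A1 counts was not tested.

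BCL2, the founding guard of the family, was scarce in both lines. It lies at chr18:63123346-63320128 on the minus strand. Its NCI-H1944 level was 1.65 and 2.15 CPM in DMSO and 2.71 and 3.18 CPM after the inhibitor, without overlap, a change of 0.63 ± 0.22 (1.55-fold, adjusted p = 0.0452). That call was lost in fits with no filter (adjusted p = 0.137), with DESeq2 (0.181), and without DMSO replicate 1 (0.235), inhibitor replicate 1 (0.0692) or inhibitor replicate 2 (0.219). In NCI-H647 BCL2 was at 0.937 and 0.707 CPM in DMSO and at 1.23 and 0.663 CPM after the inhibitor, and the groups overlapped. Its change there was 0.20 ± 0.41, with a 95% interval of -0.68 to 1.07 (adjusted p = 0.714), from 9 to 18 counts per library, so a smaller change was not detectable at this depth.

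Among the pro-apoptotic members, PMAIP1 rose most in NCI-H1944 and in NCI-H647. It encodes NOXA, a BH3-only protein that binds MCL1 and is induced by p53 and by stress and interferon signals, and it lies at chr18:59899996-59904305 on the plus strand. In NCI-H1944 it was at 107 and 109 CPM in DMSO and at 217 and 213 CPM after the inhibitor. In NCI-H647 it was at 48.2 and 49.1 CPM in DMSO and at 151 and 152 CPM after the inhibitor. Replicates differed by a few percent at most, and the groups lay far apart in both lines. The change of PMAIP1 was 1.00 ± 0.04 in NCI-H1944 (2.0-fold, 95% interval 1.89 to 2.10, adjusted p = 1.73e-12) and 1.64 ± 0.05 in NCI-H647 (3.12-fold, 2.90 to 3.36, adjusted p = 7.35e-13). In NCI-H1944 792 of the tested genes had a larger rise than PMAIP1, and in NCI-H647 349 did.

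BMF, a BH3-only protein tied to the cytoskeleton and to loss of attachment, rose in NCI-H647. It lies at chr15:40087890-40108892 on the minus strand. Its NCI-H647 level was 6.98 and 5.83 CPM in DMSO and 17.1 and 16.5 CPM after the inhibitor, a change of 1.38 ± 0.12 (2.61-fold, adjusted p = 1.6e-07). In NCI-H1944 it was lower in level, at 1.68 and 2.09 CPM in DMSO and at 2.34 and 2.57 CPM after the inhibitor. The NCI-H1944 groups did not overlap, but the change of BMF did not pass the test, at 0.38 ± 0.22 with a 95% interval of -0.10 to 0.86 (adjusted p = 0.244).

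BCL2L11 encodes BIM, which binds every major guard and can activate BAX and BAK, and it rose in both lines. It lies at chr2:111119378-111168445 on the plus strand. Its NCI-H1944 level was 23.3 and 24.1 CPM in DMSO and 31.1 and 27.6 CPM after the inhibitor, a change of 0.31 ± 0.07 (1.24-fold, adjusted p = 0.00481). In NCI-H647 it was at 21.2 and 25.2 CPM in DMSO and at 30.2 and 33.7 CPM after the inhibitor, a change of 0.46 ± 0.08 (1.38-fold, adjusted p = 0.000237). Treated libraries were above controls in both lines. The NCI-H1944 call was lost with no filter (adjusted p = 0.0759) and without inhibitor replicate 1 (0.0929). On the opposite strand in part of the BCL2L11 interval lies MIR4435-2HG, a long noncoding RNA with 7601 counts over the 4 NCI-H647 libraries against 1710 for BCL2L11, and the strand setting of the counting is not given. MIR4435-2HG fell by 0.28 ± 0.05 in NCI-H647 (adjusted p = 0.000239), the direction opposite to BCL2L11.

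BID, which joins death receptor signals to mitochondria once caspase-8 cleaves it, rose in both lines. It lies at chr22:17734138-17774770 on the minus strand. In NCI-H1944 it was at 31.3 and 34.6 CPM in DMSO and at 39.7 and 38.5 CPM after the inhibitor, a change of 0.25 ± 0.06 (1.19-fold, adjusted p = 0.00702). Its NCI-H647 level was 65.7 and 64.3 CPM in DMSO and 80.1 and 83.2 CPM after the inhibitor, a change of 0.33 ± 0.05 (1.26-fold, adjusted p = 6.6e-05). The groups did not overlap in either line. The NCI-H1944 call was lost with no filter (adjusted p = 0.0839), without DMSO replicate 1 (0.109) and without inhibitor replicate 1 (0.0578).

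BAK1, the pore-forming effector among the 10, rose in NCI-H647. It lies at chr6:33572547-33580293 on the minus strand. In NCI-H647 it was at 15.6 and 15.8 CPM in DMSO and at 20.4 and 19.5 CPM after the inhibitor, a change of 0.35 ± 0.08 (1.27-fold, adjusted p = 0.00269, but 0.0757 with DESeq2). Its NCI-H1944 level was 23.5 and 22.4 CPM in DMSO and 28.0 and 23.5 CPM after the inhibitor. The second inhibitor library of NCI-H1944 lay at the level of the higher control and the first stood apart. The BAK1 change there was 0.17 ± 0.08 with a 95% interval of -0.01 to 0.35 (adjusted p = 0.159), and without inhibitor replicate 2 it was 0.29 (adjusted p = 0.0242).

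BIK, a BH3-only protein of the endoplasmic reticulum, was scarce. It lies at chr22:43110750-43129712 on the plus strand. In NCI-H1944 it was at 1.98 and 2.02 CPM in DMSO and at 2.07 and 1.45 CPM after the inhibitor. The groups overlapped, and the change of BIK was -0.18 ± 0.25 with a 95% interval of -0.71 to 0.34 (adjusted p = 0.648). In NCI-H647 BIK had 2 counts in each DMSO library and 7 and 6 counts after the inhibitor, under the filter on low counts. The ratio of its scaled counts was 4.44, with an exact interval of 1.37 to 18.7 that covers counting error only, and a fit without the filter gave an adjusted p of 0.0719.

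**Figure D2:**
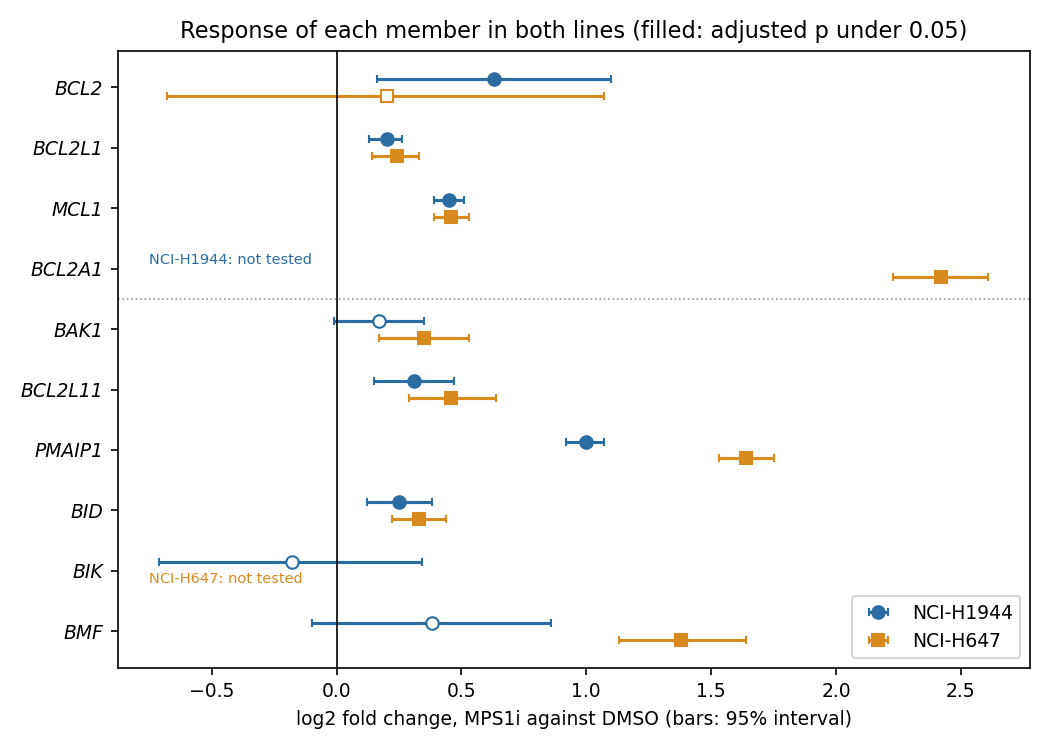
Log2 fold change of the inhibitor over DMSO for each tested member in each line, with 95% intervals as bars; filled points passed an adjusted p of 0.05. In NCI-H647 the values ran from 0.20 (BCL2) to 2.42 (BCL2A1), and in NCI-H1944 from -0.18 (BIK) to 1.00 (PMAIP1).

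Set among all tested genes, the members took different places. In NCI-H1944, PMAIP1 stood above 95.3% of the tested genes, BCL2 above 91.4%, MCL1 above 88.0% and BMF above 85.7%. BIK was the only tested member in the lower part of that distribution, above 19.8% of the genes. In NCI-H647, BCL2A1 stood above 99.0% of the tested genes, PMAIP1 above 97.7%, BMF above 96.7% and BCL2L11 above 82.3%. BCL2 was the lowest of the NCI-H647 members, above 66.4%. Every tested member had at least 12 counts in each DMSO library, so none passed the filter through the treated group alone.

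**Figure D3:**
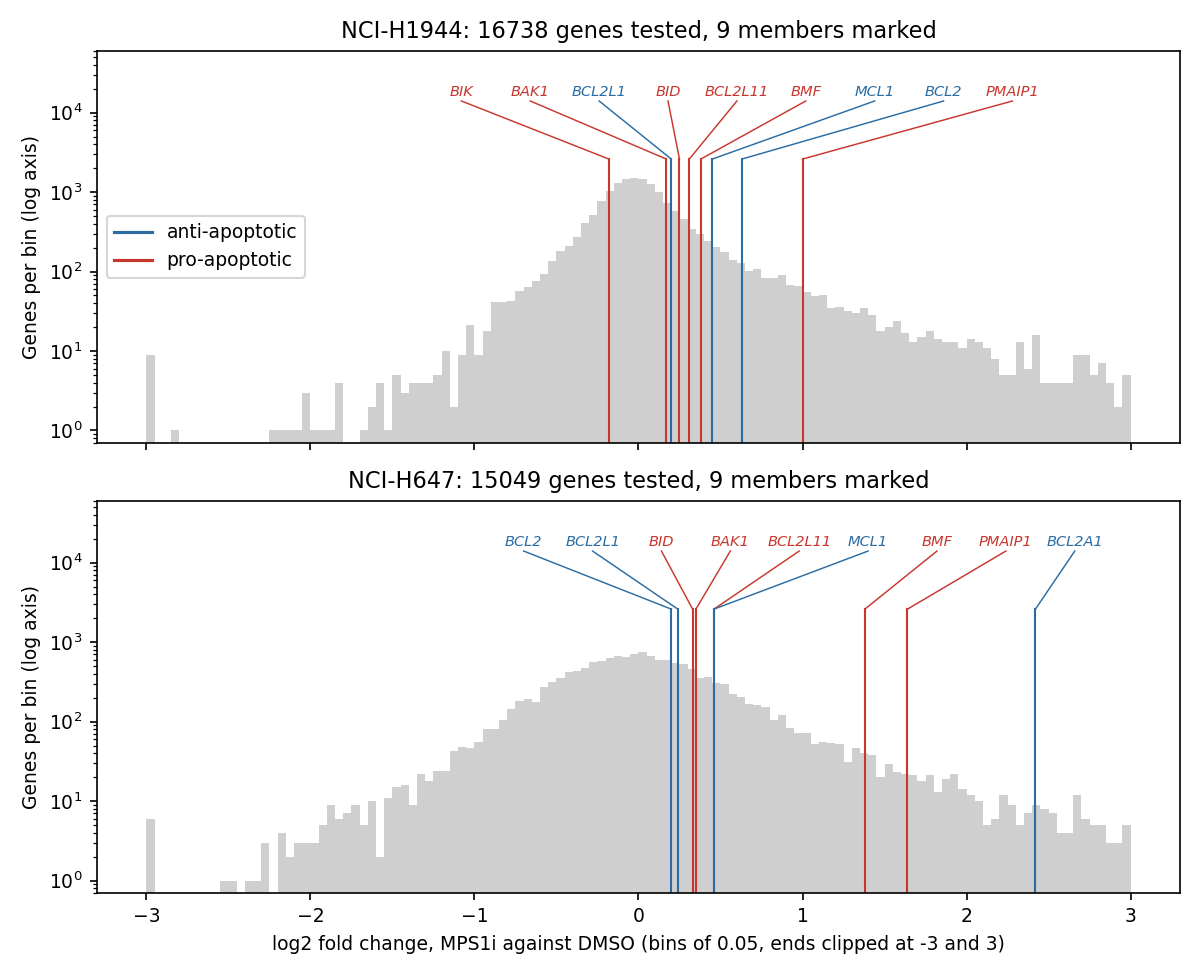
Distribution of log2 fold changes over all genes tested in each line, with the members marked on it. The distributions are centred near 0 (medians 0.00 and 0.01), and PMAIP1 lies above 95.3% of the genes in NCI-H1944 and above 97.7% in NCI-H647.

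The difference of the responses was tested as the interaction of line and treatment over the 12887 genes kept by the filter in each line, of which 39.6% differed. PMAIP1 and BMF were the 2 of 8 tested members whose responses differed. The log2 fold change of PMAIP1 was higher in NCI-H647 by 0.65 ± 0.05, a 1.57-fold difference with a 95% interval of 0.54 to 0.76 in log2 (adjusted p = 1.71e-09). The log2 fold change of BMF was higher in NCI-H647 by 1.01 ± 0.25, a 2.01-fold difference with an interval of 0.49 to 1.53 (adjusted p = 0.00278). In CPM, PMAIP1 started from the lower level in NCI-H647, and BMF from the higher. The library kits differed between the lines, and these levels were not tested against each other. Over all tested genes, 19.3% had the more positive response in NCI-H647 and 20.3% in NCI-H1944, so a called difference was common in these data.

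For the other 6 tested members the difference did not pass the test. The narrowest intervals were those of MCL1, with a difference of 0.01 ± 0.04 (-0.07 to 0.10, adjusted p = 0.863), and BCL2L1, with 0.04 ± 0.05 (-0.06 to 0.15, adjusted p = 0.497). The difference was 0.09 ± 0.09 for BID (-0.09 to 0.26, adjusted p = 0.465) and 0.16 ± 0.12 for BCL2L11 (-0.08 to 0.40, adjusted p = 0.296). BAK1 had a difference of 0.18 ± 0.13 (-0.08 to 0.45, adjusted p = 0.266), which passed without the first inhibitor library of NCI-H1944, at 0.32 (adjusted p = 0.0343). BCL2 had the widest interval, -1.47 to 0.60 around -0.43 ± 0.50 (adjusted p = 0.528). BCL2A1 and BIK did not pass the filter in both lines, and fits without it gave adjusted p values of 0.137 for BCL2A1 and 0.0434 for BIK, each resting on few counts in 1 of the lines.

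Ratios of members within a library do not depend on library scaling and set a BH3-only gene beside the guard its product binds. The PMAIP1 to MCL1 ratio of counts was 0.319 and 0.328 in DMSO and 0.471 in both treated libraries of NCI-H1944, 1.46 times higher. In NCI-H647 it was 0.129 and 0.131 in DMSO and 0.295 and 0.292 after the inhibitor, 2.27 times higher. PMAIP1 thus rose more than MCL1 in the fitted values of both lines, and all treated ratios lay above the control ratios of their line. Relative to BCL2A1, the other guard bound by NOXA, the order was the opposite. The PMAIP1 to BCL2A1 ratio in NCI-H647 was 6.25 and 7.51 in DMSO and 4.06 and 3.87 after the inhibitor, 0.578 times the control value. These ratios carry no test, and they are of counts not corrected for gene length, so only their change is read.

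The BMF to BCL2L1 ratio in NCI-H647 was 0.0517 and 0.0422 in DMSO and 0.104 and 0.106 in treated libraries, 2.24 times higher. In NCI-H1944 that ratio was 0.00609 and 0.00761 in DMSO and 0.00755 and 0.00802 after the inhibitor, and the groups overlapped. BIM and MCL1 transcripts kept nearer to each other. The BCL2L11 to MCL1 ratio in NCI-H1944 was 0.0697 and 0.0725 in DMSO. It was lower in both treated libraries there, at 0.0675 and 0.0611, 0.903 times the control value. In NCI-H647 that ratio was 0.0567 and 0.0670 in DMSO and 0.0591 and 0.0645 after the inhibitor, and the groups overlapped. The BAK1 to MCL1 ratio was lower in all treated libraries, at 0.0608 and 0.0520 against 0.0701 and 0.0676 in NCI-H1944 and 0.040 and 0.0374 against 0.0416 and 0.0421 in NCI-H647. The BAK1 to BCL2L1 ratio was not. It was 0.0904 and 0.0734 against 0.0852 and 0.0816 in NCI-H1944, where the groups overlapped. In NCI-H647 it was higher after the inhibitor, at 0.124 and 0.125 against 0.115 in both DMSO libraries. Between the guards, MCL1 to BCL2L1 went from 1.22 and 1.21 to 1.49 and 1.41 in NCI-H1944 and from 2.78 and 2.72 to 3.09 and 3.34 in NCI-H647, without overlap.

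**Figure D4:**
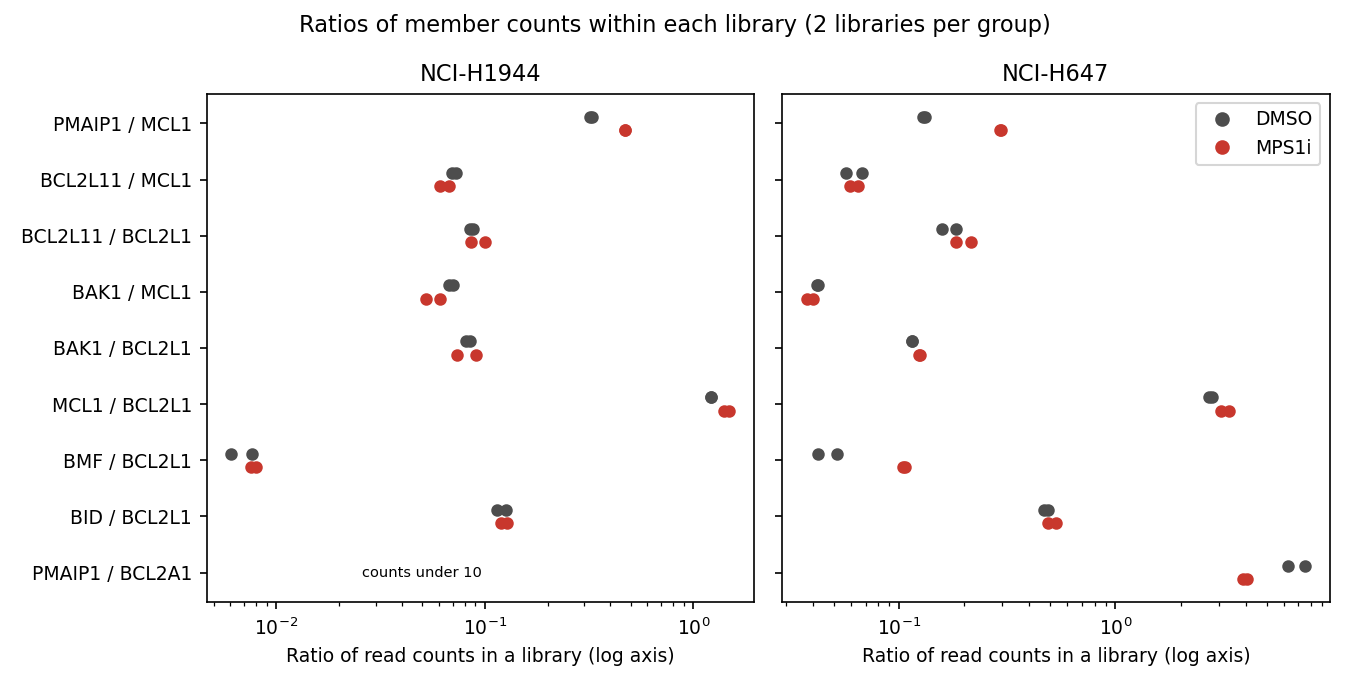
Ratios of member counts within each library, on a log axis, with 1 point per library for DMSO and inhibitor in each line. Each sets a pro-apoptotic over an anti-apoptotic member, except MCL1 over BCL2L1, which are both anti-apoptotic. The PMAIP1 to MCL1 ratio moved from 0.129 and 0.131 to 0.295 and 0.292 in NCI-H647, whereas the PMAIP1 to BCL2A1 ratio was lower in both treated libraries there.

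Levels were compared between genes only per length, as CPM per kilobase of merged exons. In DMSO-treated NCI-H1944 cells the guards BCL2L1 (83.0 CPM per kilobase) and MCL1 (76.2) were highest, followed by PMAIP1 (48.3). BAK1 (10.4), BID (7.42), BCL2L11 (3.56) and BIK (2.10) formed a middle range, and BMF (0.345), BCL2 (0.161) and BCL2A1 (0) were lowest. After the inhibitor the level of MCL1 was 105, and PMAIP1 (97.1 and 95.3 in the libraries) and BCL2L1 (93.5 and 96.6) overlapped, so these neighbours did not differ beyond their spread. BMF (0.452) and BCL2 (0.25) were again the lowest above BCL2A1 (0.128).

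In DMSO-treated NCI-H647 cells MCL1 was highest at 85.8 CPM per kilobase, followed by BCL2L1 (41.3), PMAIP1 (21.7) and BID (14.6). BAK1 (7.05 and 7.14) and BCL2A1 (7.08 and 6.01) overlapped in the controls. After the inhibitor PMAIP1 (68.0) was above BCL2L1 (48.6), and BCL2A1 (35.2) was above BID (18.4) and BAK1 (9.04). BCL2L11 (3.48 in DMSO, 4.79 treated), BMF (1.17 and 3.08), BIK (0.116 and 0.498) and BCL2 (0.0699 and 0.0805) remained below these. The exon lengths came from an annotation that may not be the one the counts were made with. A mismatch shifts a gene's level equally in every library of a line. It can change the order of genes and can differ between the lines.

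Of the other BCL2 family genes examined, BCL2L12 was the only one called in the same direction in both lines. BAX, the second pore-forming effector, did not pass the test in NCI-H1944 (-0.09) and fell by 0.25 ± 0.10 in NCI-H647 (adjusted p = 0.0382), with treated libraries at 17.9 and 14.7 CPM below a DMSO mean of 19.5. The BAX call was lost with library totals (0.0891), no filter (0.0906), DESeq2 (0.237) and without DMSO replicate 2 (0.083) or inhibitor replicate 2 (0.328), so it rested in large part on the second treated library. BBC3, which encodes the p53-induced BH3-only protein PUMA, rose by 0.78 ± 0.22 in NCI-H647 (3.23 and 2.36 to 5.14 and 4.49 CPM, adjusted p = 0.00745) and was at 0.04 in NCI-H1944, not called. The BBC3 responses differed between lines by 0.74 ± 0.19 (adjusted p = 0.00301), although the NCI-H647 call was lost with DESeq2 (0.0662) and without DMSO replicate 2 (0.0527) or inhibitor replicate 1 (0.0764). HRK, a BH3-only protein best known in neurons, rose by 0.64 ± 0.12 in NCI-H1944 (5.84 and 7.10 to 10.2 and 9.91 CPM, adjusted p = 0.000741) and had 0 counts in all NCI-H647 libraries.

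BCL2L2, which encodes the guard BCL-W, rose by 0.36 ± 0.09 in NCI-H647 (adjusted p = 0.00236, but 0.0634 with DESeq2) and was at -0.07 in NCI-H1944, not called. The BCL2L2 responses differed between lines by 0.43 ± 0.10 (adjusted p = 0.00116). BCL2L13, a mitochondrial protein also tied to mitophagy, rose by 0.66 ± 0.04 in NCI-H1944 (76.1 and 78.3 to 121 and 122 CPM, adjusted p = 1.61e-09) and was at -0.04 in NCI-H647, not called, a difference of -0.69 ± 0.06 (adjusted p = 1.35e-09). BCL2L12 fell by 0.46 ± 0.07 in NCI-H1944 (adjusted p = 0.000116) and by 0.45 ± 0.10 in NCI-H647 (adjusted p = 0.000941). BCL2L15 rose by 0.66 ± 0.12 in NCI-H1944 (adjusted p = 0.000683). BAD, which growth factor kinases hold inactive, and the effector-like BOK did not pass the test in either line (0.08 and 0.19 for BAD, -0.12 and 0.00 for BOK). BCL2L10 and BCL2L14 in both lines, and BCL2L15 in NCI-H647, were under the filter on low counts.

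Downstream of the membrane step, the 15 genes of the mitochondrial death pathway moved in both directions. In NCI-H1944, 2 rose and 4 fell, with a median log2 fold change of -0.04, and in NCI-H647 4 rose and 5 fell, with a median of -0.03. Over all tested genes 26.0% and 54.4% were called in these lines. CASP9, the initiator caspase of the apoptosome, rose by 0.26 ± 0.06 in NCI-H1944 (adjusted p = 0.00237) and was at 0.31 ± 0.15 in NCI-H647, not called (adjusted p = 0.0814). VDAC3, a channel of the outer membrane, fell by 0.24 and 0.32 in the lines, VDAC1 fell by 0.32 in NCI-H647 (-0.03 in NCI-H1944, not called), and DFFA, the inhibitor of the apoptotic nuclease, fell by 0.33 and 0.35.

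The inhibitor of apoptosis proteins, 7 genes that block caspases or their upstream complexes, held 3 that rose and 1 that fell in each line, of 7 tested in NCI-H1944 and 6 in NCI-H647, beside 26.0% and 54.4% of all tested genes called. BIRC3, an NF-kB target, rose by 1.39 ± 0.04 in NCI-H1944 (adjusted p = 2e-13) and by 1.43 ± 0.04 in NCI-H647 (adjusted p = 1.03e-13). BIRC2 rose by 0.43 and 0.55, and BIRC5 (survivin), which also serves in mitosis and varies with the cell cycle, fell by 0.81 and 0.70. BIRC6 rose by 0.14 in NCI-H1944 and was at 0.00 in NCI-H647, not called, and XIAP rose by 0.15 in NCI-H647 and was at 0.09 in NCI-H1944, not called.

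Of 15 genes whose products stabilise, degrade or modify BCL2 family proteins, 2 rose and 3 fell in NCI-H1944 and 9 rose and 5 fell in NCI-H647, with medians of 0.02 and 0.20. Of all tested genes, 26.0% and 54.4% were called. HUWE1, a ubiquitin ligase that targets MCL1, fell by 0.51 ± 0.03 in NCI-H647 (adjusted p = 5.16e-09) and was at 0.05 in NCI-H1944, not called, a difference of -0.56 between the lines (adjusted p = 2.53e-10). USP9X, which removes ubiquitin from MCL1, rose by 0.28 in NCI-H1944 (adjusted p = 9.12e-05) and fell by 0.18 in NCI-H647 (adjusted p = 0.000784). FBXW7, part of a ligase for MCL1, rose by 0.30 in NCI-H1944 and 0.31 in NCI-H647. PIM2, a kinase that phosphorylates BAD, rose by 1.49 in NCI-H647, where BCAP31 rose by 0.42 and YWHAZ, which holds phosphorylated BAD, fell by 0.22. These 3 genes were not called in NCI-H1944, at 0.71, 0.02 and 0.04. BAG1, a BCL2-binding cochaperone, fell by 0.26 in NCI-H1944 and rose by 0.36 in NCI-H647 (adjusted p = 0.00151). TMBIM6, known as BAX inhibitor 1, fell by 0.08 in NCI-H1944 and rose by 0.24 in NCI-H647 (adjusted p = 1.92e-05).

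Of 17 transcription factors reported to act on family promoters, 12 rose and 2 fell in NCI-H1944 and 13 rose and none fell in NCI-H647, with medians of 0.20 and 0.63. Of all tested genes, 13.6% rose in NCI-H1944 and 27.3% in NCI-H647. IRF1, which binds the ISRE, rose by 1.48 ± 0.06 in NCI-H1944 (adjusted p = 6.94e-12) and by 1.43 ± 0.07 in NCI-H647 (adjusted p = 2.96e-10). ATF3, a factor of the CREB/ATF family, rose by 0.89 in NCI-H1944 and by 2.66 in NCI-H647. JUN, an AP-1 subunit, rose by 0.95 in NCI-H1944 and 0.63 in NCI-H647, and NFKB2 by 0.43 and 0.89. The part of these factors in the changes of the members was not tested.

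**Figure D5:**
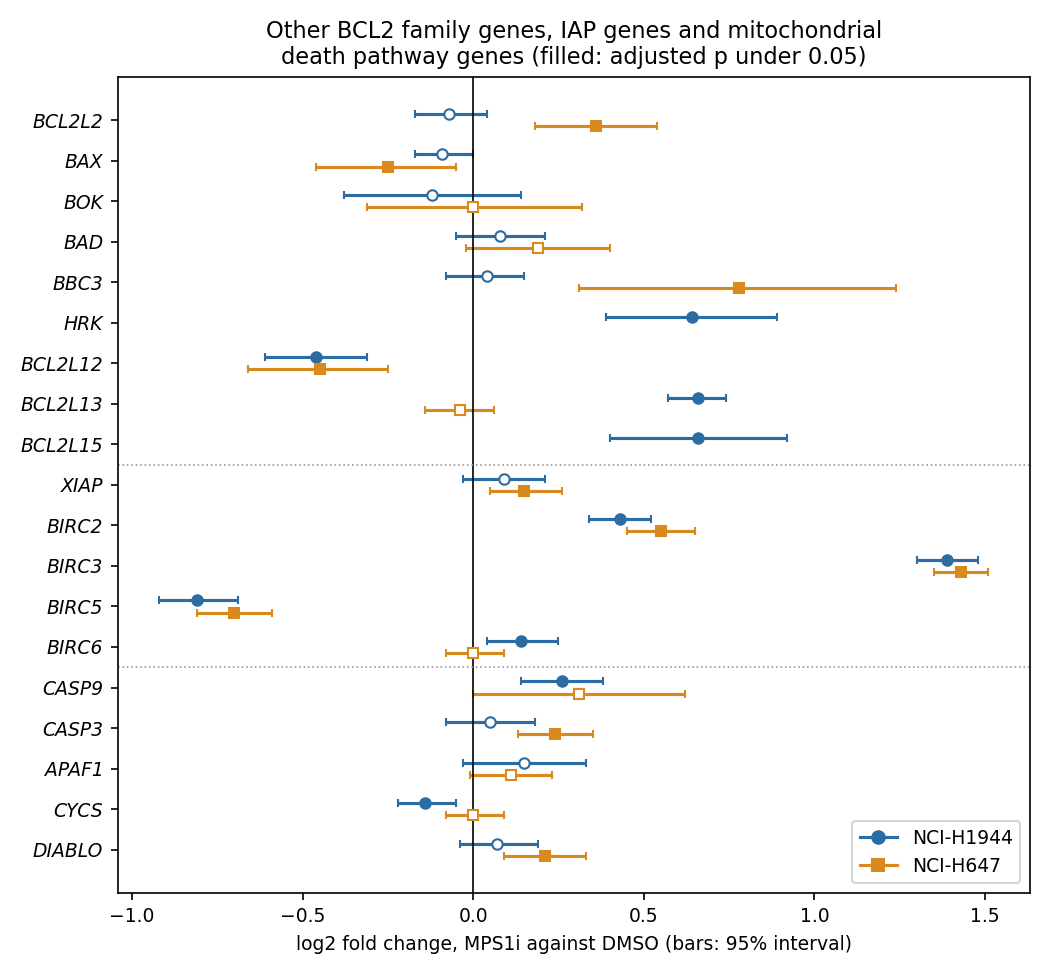
Log2 fold changes of the inhibitor over DMSO in both lines for other BCL2 family genes, inhibitor of apoptosis genes and mitochondrial death pathway genes (from top to bottom, bars are 95% intervals), with filled points for an adjusted p under 0.05. BIRC3 (1.39 and 1.43) rose in both lines, and BIRC5 (-0.81 and -0.70) fell in both.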

How the data were processed

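RNA was sequenced in 8 libraries, 2 per line and treatment, grouped by their titles. The values are whole-number read counts per gene, deposited by the authors in 1 table per line and not normalized. Per the submitters' processing notes, Trim Galore, Trimmomatic, cutadapt, STAR, featureCounts, HISAT2, StringTie and the build GRCh38 were used. Their versions, which made which table, the annotation and the strand setting are, for each table, not given in the sources used here. No column belonged to another sample (0). Where a symbol was repeated, the entry with the highest total was used.

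In R 4.3.3, genes were filtered with filterByExpr (minimum count 10, minimum total 15), scaled by TMM and fitted within each line with edgeR 4.0.16's quasi-likelihood test (glmQLFit, glmQLFTest), with Benjamini-Hochberg adjustment and a threshold of 0.05. The difference between lines was the interaction in a fit of all 8 libraries on 32128 shared symbols, of which 12887 passed the filter. The SE is the size of the log2 fold change divided by the square root of F. Alternatives were library totals, no filter, DESeq2 1.42.0, a 1.5-fold minimum, a replicate block and leaving out each library. The fits were tested on simulated data. Kilobase lengths were merged exons of a GENCODE annotation.

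All members and other BCL2 family genes were named whatever their outcome, and up to 4 called genes of each other list per line, by smallest adjusted p; some of these are not reported here. CD14, PTPRC, SPI1 and MIR4435-2HG lie outside that rule: they were picked once their values had been seen. Members and lists were chosen with earlier results of these data known.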

Additional observations from a re-analysis of the deposited data

Results flagged for a closer look

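The responses of PMAIP1 and BMF differed between the lines in the interaction test of edgeR. The PMAIP1 response was higher in NCI-H647 by 0.65 on the log2 scale (adjusted p = 1.71e-09), and treated libraries were above controls in both lines. The BMF response was higher in NCI-H647 by 1.01 (adjusted p = 0.00278), although BMF had only 66 to 110 counts per library in NCI-H1944. The lines differ in library kit and depth as well, and 39.6% of all tested genes differed between them, so kit, depth and line cannot be told apart here.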

How the results depend on the processing

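Directions of called members held in every alternative run. With a 1.5-fold minimum the called anti-apoptotic and pro-apoptotic members were 0 and 1 in NCI-H1944 and 1 and 2 in NCI-H647, and all genes called were 427 and 1256. With no filter, NCI-H1944 had 1 pro-apoptotic member and 2325 genes called, against 4346 with it. DESeq2 called 5446 genes in NCI-H647, against 8184. Leaving out each library gave 2 to 3 anti-apoptotic and 1 to 4 pro-apoptotic members and 3335 to 3732 genes in NCI-H1944, the lowest member count without inhibitor replicate 1. In NCI-H647 it gave 3 and 5 members throughout and 6922 to 7395 genes, and for the difference between lines 2 to 3 members and 4171 to 4951 genes. Signs turned only for values that were not called. These were BIK in NCI-H1944 (-0.47 to 0.05 over left-out libraries), BCL2 in NCI-H647 (-0.33 to 0.56), BOK in NCI-H647 (-0.11 to 0.11, with -0.06 without inhibitor replicate 2, and -0.02 with no filter), BCL2L13 in NCI-H647 (0.01 with library totals) and the difference of MCL1 (-0.01 to 0.03, reaching 0 without NCI-H1944 inhibitor replicate 2, and -0.02 with no filter). The cause was not tested.

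Same-numbered libraries did not deviate together (correlations of 0.04 and -0.02 across genes), so the numbers were not taken as pairs. With a replicate block the members called stayed at 3 and 3 in NCI-H1944, 3 and 5 in NCI-H647 and 2 for the difference, and 4817, 8434 and 5095 genes were called. Depth limits BCL2, BCL2A1 and BIK, which had few counts in at least 1 line, and BMF in NCI-H1944, with 66 to 110 counts per library.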
